A study of Homo sapiens with 6 samples.

Results

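The BCL2 family decides whether the outer membrane of the mitochondrion is opened during apoptosis, and 10 of its genes were followed in human forebrain organoids exposed to the amyloid-β peptide Aβ42. The members were taken by name from the deposited gene table, which lists 18056 genes and holds all 10. Survival proteins and their antagonists were both included, and 4 members are anti-apoptotic (BCL2, BCL2L1, BCL2L2 and MCL1) and 6 are pro-apoptotic (BCL2L11, BID, BAD, BMF and HRK, which are BH3-only proteins, and BAK1, which forms the pore). All 10 passed the filter on low counts, with 101 to 5496 estimated counts per library.

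The organoids came from DYR0100, a wild-type line of human induced pluripotent stem cells, and were made by a dorsal forebrain protocol. The 3 vehicle libraries and the 3 libraries given 5 µM Aβ42, each after 6 days, share line, genotype and batch, and the study's design text calls the replicates independent. Results therefore concern 1 line, and the labels give neither the age of the organoids nor how many were pooled in a library. Polyadenylated RNA was sequenced to 16465390 to 16742958 estimated counts per library.

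In the intrinsic pathway of apoptosis, BH3-only proteins sense stress and bind the anti-apoptotic proteins, or activate BAX and BAK1 directly. Active BAX and BAK1 release cytochrome c, which starts the caspase cascade. Developing neurons depend on this balance: MCL1 and BCL2L1 (the gene of BCL-xL) are known to keep neural progenitors and young neurons alive, while BCL2L11 (BIM), HRK, BMF and BBC3 (PUMA) are known triggers of neuronal death. Activity of these proteins is also set by phosphorylation, cleavage and turnover, none of which transcript levels show.

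Per transcript length, the 4 anti-apoptotic members together were more abundant than the 6 pro-apoptotic members in every library. In TPM, a unit scaled for gene length and library total, MCL1 was highest at 201 to 223 over the 6 libraries, followed by BCL2L1 at 96.9 to 126 and BAD, whose protein binds BCL2 and BCL-xL, at 42.8 to 68.8. These 3 ranges did not overlap each other or the next. BID, the substrate that caspase-8 cleaves, was at 29.8 to 35.4 TPM. BCL2L2 (BCL-w) at 26.0 to 30.8, BCL2 at 19.6 to 28.0 and BCL2L11 at 20.1 to 24.7 TPM came next, and from BID down each of these ranges overlapped its neighbour. BAK1 at 7.89 to 11.5, BMF at 6.49 to 8.17 and HRK at 5.00 to 8.08 TPM were lowest, overlapped each other and lay below BCL2L11.

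**Figure D1:**
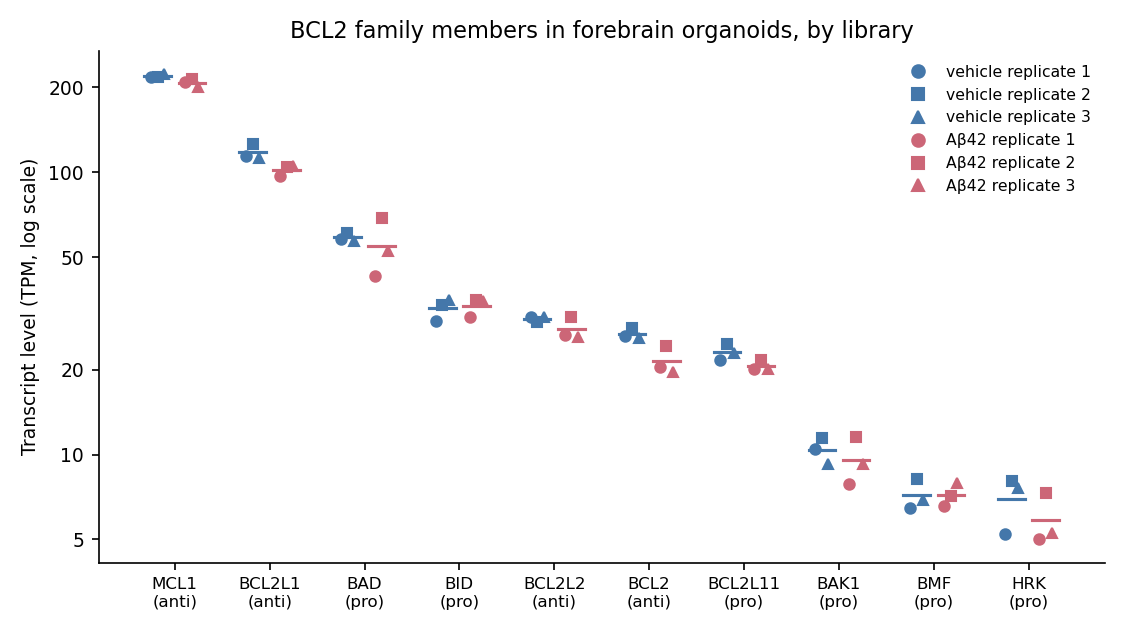
Level of each member in TPM on a log axis, ordered by the mean over 6 libraries. Each point is 1 library and each bar a group mean (n = 3). MCL1 and BCL2L1 stand above all other members in both groups, and BAK1, BMF and HRK below them.

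The promoters of the BCL2L1 and BCL2L11 genes are shown because their proteins, BCL-xL and BIM, bind each other and stand on opposite sides of the family. Both stretches lie upstream of the annotated start, touch no exon of GENCODE 29 and are printed 5′ to 3′ on the strand of the gene (RefSeq, GRCh38.p14). Capitals mark motifs found on either strand: TATAAA in the first, and GGGCGG (GC box) and CCAAT, here read as ATTGG, in the second.
BCL2L1, chr20:31723990-31724213, minus strand: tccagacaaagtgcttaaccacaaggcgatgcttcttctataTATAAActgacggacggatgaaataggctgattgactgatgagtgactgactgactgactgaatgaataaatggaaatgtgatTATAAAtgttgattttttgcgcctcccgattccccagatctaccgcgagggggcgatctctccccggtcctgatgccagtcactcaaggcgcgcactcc
BCL2L11, chr2:111120664-111120913, plus strand: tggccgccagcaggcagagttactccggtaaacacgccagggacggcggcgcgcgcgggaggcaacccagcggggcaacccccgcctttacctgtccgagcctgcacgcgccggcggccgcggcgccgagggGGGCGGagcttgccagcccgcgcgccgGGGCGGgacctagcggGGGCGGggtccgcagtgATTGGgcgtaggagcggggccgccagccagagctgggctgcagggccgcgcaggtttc
BCL2L1 has 2 promoter windows, and the one at the 5′ start of this minus-strand gene is shown. The other, at 31722819 to 31723118, held 1 GC box and no TATAAA, so the contrast with BCL2L11 depends on the window. The BCL2L1 stretch of 224 bases held TATAAA at 2 places and none of the other motifs searched, while the BCL2L11 stretch of 250 bases held 3 GC boxes and 1 CCAAT. Of 35116 RefSeq promoter windows of 300 bases, 11.5% held TATAAA, 45.0% GGGCGG and 34.6% CCAAT on either strand. TGACGTCA (CRE) was in 1.85%, TGANTCA (AP-1) in 7.71% and CACGTG (E-box) in 7.26%. The 15 windows of the 8 members with an entry held no CRE or AP-1 letters, and the BCL2 window, which GENCODE 29 annotates as exon over all 300 bases, held none of the 6 motifs. These are matches of letters, not measured sites.

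Exposure to Aβ42 was compared with vehicle over all 13842 genes that passed the count filter, by edgeR's quasi-likelihood test with Benjamini-Hochberg adjustment and a threshold of 0.05. No gene passed (smallest adjusted p-value 0.0684), so none of the 10 members did. Before adjustment, 2 of 10 members had p-values under 0.05, BCL2 and BCL2L1, both lower, against 23.9% of all genes tested (11.5% lower). In the same 2 members the scaled counts of the groups did not overlap, against 27.0% of all genes (13.4% lower). Both counts are near the background. In value, 8 of 10 members were lower with Aβ42, against 49.3% of all genes. The members had a median absolute log2 fold change of 0.08, against 0.12 over all genes. The count of 2 was 1 without vehicle replicate 2 or without Aβ42 replicate 1, where BCL2 was left, and 4 without Aβ42 replicate 2, where BCL2L2 and HRK joined.

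BCL2, the founding survival gene of the family (Entrez gene ID 596, chromosome 18, 63123346 to 63320090), had 64.2, 66.9 and 61.0 CPM with vehicle, against 50.6, 59.3 and 49.4 CPM with Aβ42, where CPM is the count per 1000000 counts of the library, after TMM scaling. Here and in what follows, 3 values of a group stand in the order of replicates 1, 2 and 3. Every Aβ42 library lay below every vehicle library, and Aβ42 replicate 2 came nearest to them. The group means were 64.0 ± 2.95 and 53.1 ± 5.40 CPM (SD, n = 3 each). This is a difference of -17.0%, and edgeR put the log2 fold change at -0.27 ± 0.07 (SE). In edgeR's test its adjusted p-value was 0.0888 (0.00429 unadjusted), short of the threshold. With the replicate number as a block, the adjusted p-value was 0.00787 at a log2 fold change of -0.27, and BCL2 was the only member called there, against 14.2% of all genes (7.05% lower). Its level was lower in each of the 3 same-numbered pairs, by 0.34, 0.17 and 0.30 on the log2 scale. BCL2 passed in 5 of 16 alternatives (adjusted p-values 0.00184 to 0.328 over the 16), and had an unadjusted p-value under 0.05 in all 16. DESeq2 gave an adjusted p-value of 0.0441, where 6.57% of genes passed, and limma-voom with quality weights 0.00912, where 18.4% passed. Without Aβ42 replicate 2 the log2 fold change was -0.36 (adjusted p-value 0.00184 in edgeR's test), where 23.1% of all genes passed.

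BCL2L1 (598, chromosome 20, 31664452 to 31723963), the gene of BCL-xL, measured 105, 113 and 102 CPM with vehicle, against 89.8, 96.3 and 100.1 CPM with Aβ42. The groups did not overlap, but vehicle replicate 3 and Aβ42 replicate 3 were close to each other. Its log2 fold change was -0.16 ± 0.06 (SE), or -10.5% (edgeR, adjusted p-value 0.147, unadjusted 0.0214), and it passed in 0 of 16 alternatives, the block included. Within pairs BCL2L1 was lower by 0.22 and 0.24 for numbers 1 and 2 and by 0.02 for number 3 on the log2 scale. An antisense RNA gene, ABALON, has exons that overlap those of BCL2L1 on the opposite strand. The library protocol was stranded, but whether counting used strand is not given in the sources used here.

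MCL1 (4170, chromosome 1, 150574558 to 150579610), a survival protein of short half-life, was the most even member. It had 325, 319 and 330.4 CPM with vehicle, against 318, 326 and 314 CPM with Aβ42, and the groups were interleaved in CPM. Its coefficient of variation was 1.77% in vehicle and 1.96% with Aβ42, near the 1.37% that counting error alone gives. With Aβ42 it differed by -0.02 ± 0.04 (SE) on the log2 scale, with a 95% interval of -0.12 to 0.07 (edgeR, adjusted p-value 0.772), and by -0.076 on the log2(TPM + 1) scale. In TPM, the unit of the sums below, the groups did not overlap, and differences in TPM ran lower for the other members too. MCL1 was at 218, 217 and 223 TPM with vehicle, against 209, 214 and 201 TPM with Aβ42. ADAMTSL4-AS1 on the same strand shares exon bases with MCL1.

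BCL2L2 (599, chromosome 14, 23306833 to 23311751) encodes BCL-w, a survival protein of mature neurons. It was at 41.0, 38.6 and 40.5 CPM with vehicle, against 35.9, 41.6 and 36.2 CPM with Aβ42. Aβ42 replicates 1 and 3 lay below all vehicle libraries and Aβ42 replicate 2 above them, which gave a log2 fold change of -0.08 ± 0.07 (SE) (edgeR, adjusted p-value 0.523). It was -0.15 without Aβ42 replicate 2, -0.041 without Aβ42 replicate 1, -0.047 without Aβ42 replicate 3 and -0.12 on the log2(TPM + 1) scale, none of them called. Its estimated counts were not whole in any library, and its exons are shared with the read-through gene BCL2L2-PABPN1, which the table lists at 7.79 to 42.3 counts, so its level is uncertain.

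**Figure D2:**
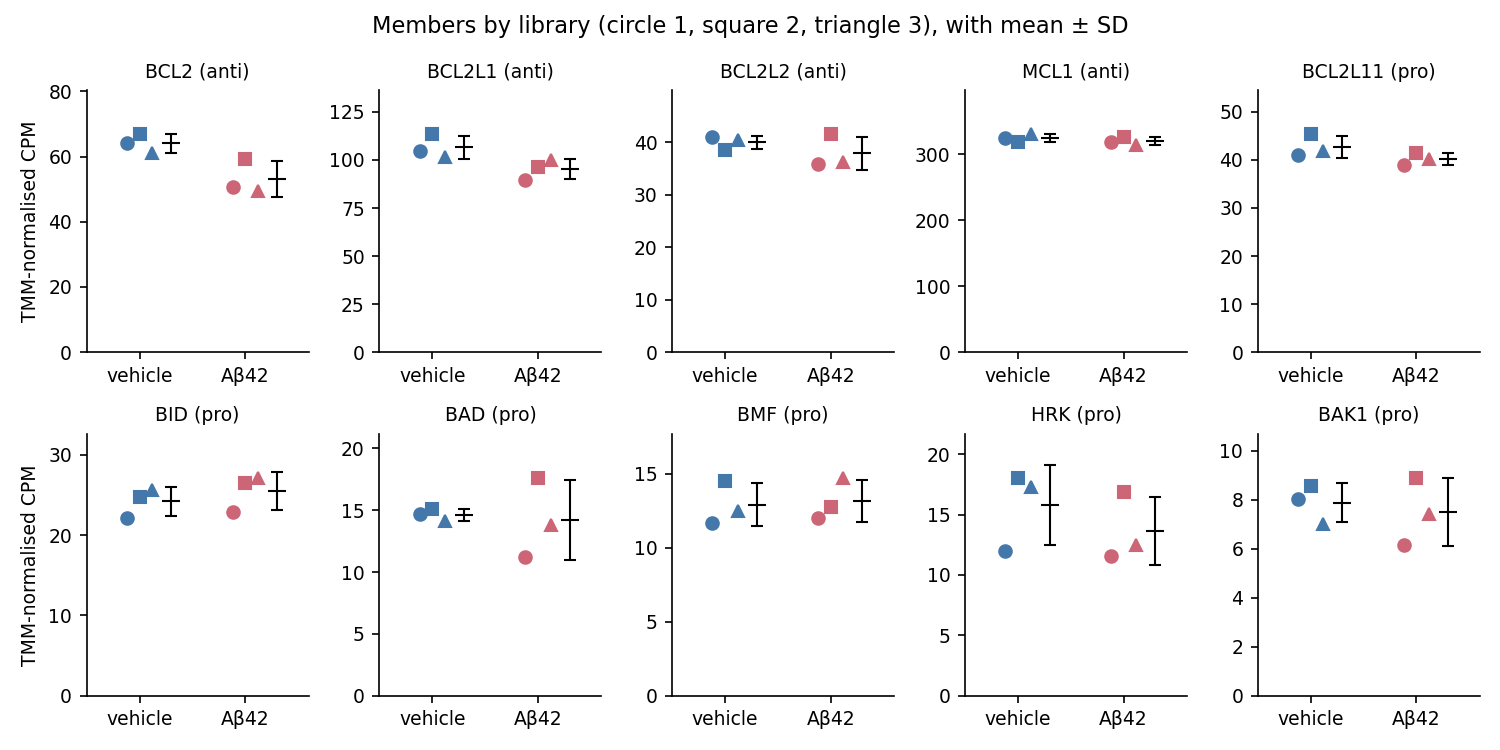
TMM-normalised CPM of the 10 members by library, with the group mean and SD (n = 3) beside the points and axes that start at 0. The Aβ42 points lie below all vehicle points for BCL2 and BCL2L1, and overlap them for the other 8 members.

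Among the BH3-only members no unadjusted p-value was under 0.05. BCL2L11 (10018, chromosome 2, 111120914 to 111168445), the gene of BIM, had 41.1, 45.4 and 41.8 CPM with vehicle, against 39.0, 41.5 and 40.1 CPM with Aβ42. The groups overlapped only through Aβ42 replicate 2, which lay above vehicle replicate 1. Across groups the log2 fold change was -0.09 ± 0.06 (SE), with a 95% interval of -0.23 to 0.05 (edgeR, adjusted p-value 0.415). It was -0.044 without vehicle replicate 2, -0.15 from log2(TPM + 1) and -0.16 with a pseudocount of 0.1, none of them called. The 3 pairs were lower by 0.08, 0.13 and 0.06 on the log2 scale. BCL2L11 was 1 of 4 members lower in all 3 pairs, with BCL2, BCL2L1 and HRK, against 24.6% of all genes. With BID, which was higher in all 3, 5 of 10 members kept 1 direction, against 50.2% of all genes.

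HRK (8739, chromosome 12, 116856144 to 116881441), also called Harakiri, is a neuronal BH3-only gene induced by loss of trophic support. It was measured at 11.96, 18.1 and 17.3 CPM with vehicle, against 11.6, 16.9 and 12.5 CPM with Aβ42. Vehicle replicate 1 and Aβ42 replicates 1 and 3 were low and the other 3 libraries high, so each group held both levels. The coefficient of variation was 21.1% in vehicle and 20.7% with Aβ42, where counting error alone gives 6.41%. Its log2 fold change of -0.21 ± 0.18 (SE) had a 95% interval of -0.63 to 0.21 (edgeR, adjusted p-value 0.518). It was -0.39 without Aβ42 replicate 2, -0.37 without vehicle replicate 1, -0.10 without vehicle replicate 2, -0.14 without vehicle replicate 3 and -0.10 without Aβ42 replicate 1, and none of these fits called it.

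BAD (572, chromosome 11, 64269828 to 64284704), which growth factor signalling holds inactive by phosphorylation, had 14.7, 15.1 and 14.1 CPM with vehicle, against 11.2, 17.6 and 13.8 CPM with Aβ42. Vehicle libraries were alike, whereas Aβ42 replicate 1 was the lowest and Aβ42 replicate 2 the highest of all 6. The coefficient of variation was 3.40% in vehicle and 22.7% with Aβ42; the difference in spread was not tested. Between groups BAD differed by -0.04 ± 0.14 (SE) on the log2 scale (edgeR, adjusted p-value 0.892), and its sign turned without Aβ42 replicate 1, to 0.11. Exons of BAD overlap those of GPR137 on the opposite strand. Such overlap is also annotated for BCL2L2 (PPP1R3E), BCL2L11 (MIR4435-2HG), BMF (BMF-AS1) and BAK1 (GGNBP1). The open question of strand in counting, given for BCL2L1, applies to these members too.

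BID and BMF were the 2 members higher in value with Aβ42. For BID (637, chromosome 22, 17734138 to 17774665) the levels were 22.2, 24.7 and 25.7 CPM with vehicle, against 22.9, 26.5 and 27.2 CPM with Aβ42, and in both groups replicate 1 was the lowest. For BID the log2 fold change was 0.08 ± 0.09 (SE), with a 95% interval of -0.12 to 0.27 (edgeR, adjusted p-value 0.625). With 1 library left out it ran from 0.017, without vehicle replicate 1, to 0.15, without Aβ42 replicate 1, and it was 0.029 on the log2(TPM + 1) scale. BMF (90427, chromosome 15, 40087890 to 40108879), whose protein is held at the cytoskeleton until released, was at 11.7, 14.5 and 12.5 CPM with vehicle, against 12.01, 12.8 and 14.8 CPM with Aβ42, with the groups interleaved. Its log2 fold change of 0.03 ± 0.12 (SE) (adjusted p-value 0.899 in edgeR's test) turned to -0.04 without vehicle replicate 1 and -0.06 without Aβ42 replicate 3.

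BAK1 (578, chromosome 6, 33572552 to 33580276), the pore-forming member, had 8.05, 8.57 and 7.01 CPM with vehicle, against 6.16, 8.91 and 7.44 CPM with Aβ42. Aβ42 replicate 1 was the lowest and Aβ42 replicate 2 the highest of the 6 libraries, as in BAD. For BAK1 the log2 fold change was -0.07 ± 0.15 (SE), with a 95% interval of -0.41 to 0.27 (edgeR, adjusted p-value 0.807), and it was 0.05 without Aβ42 replicate 1 and -0.21 without Aβ42 replicate 2.

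**Figure D3:**
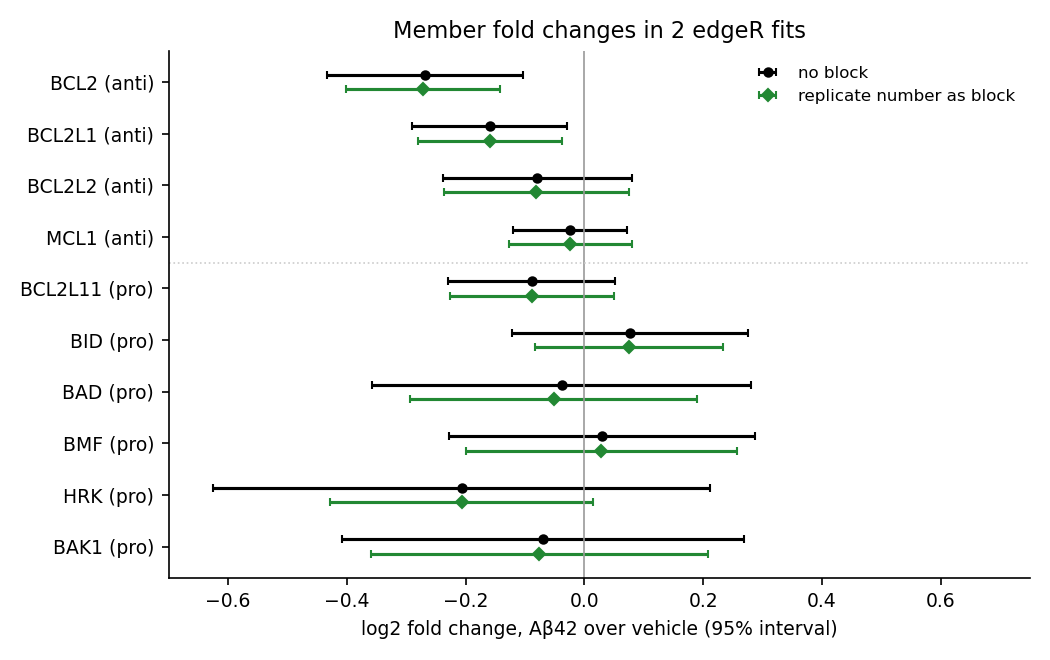
Log2 fold change of each member, Aβ42 over vehicle, with its 95% interval, from edgeR without a block (black) and with the replicate number as a block (green). The intervals of BCL2 and BCL2L1 lie below 0 in both fits, before adjustment for the number of genes, and those of the other 8 members include 0.

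**Figure D4:**
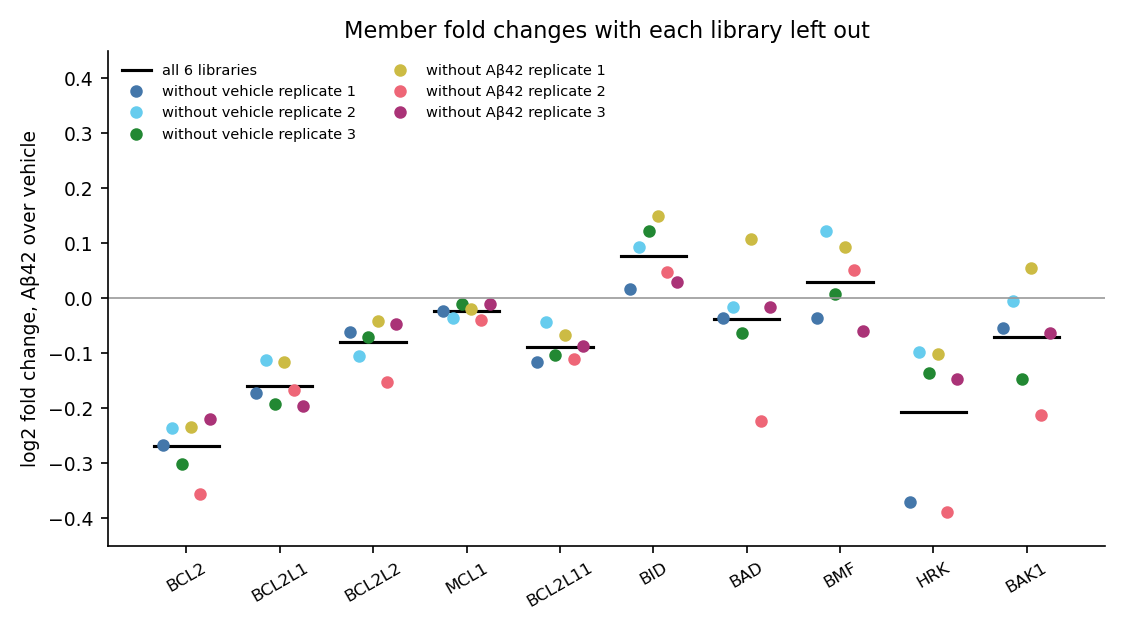
Log2 fold change of each member with all 6 libraries (black bar) and with each library left out in turn (points). BCL2, BCL2L1, BCL2L2, MCL1, BCL2L11 and HRK stay below 0 in all 6 fits. BID stays above 0, and BAD, BMF and BAK1 cross 0.

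The anti-apoptotic and pro-apoptotic sides were then set against each other as sums of TPM, without a test, since a score over chosen members is only a description. The 4 anti-apoptotic members summed to 389, 401 and 392 TPM with vehicle and to 353, 373 and 352 TPM with Aβ42. All Aβ42 sums lay below all vehicle sums, with means of 359 ± 12.1 and 394 ± 6.13 TPM (SD, n = 3 each), a difference of -8.77%. Summed as CPM the difference was -5.50% (533 to 538 CPM in vehicle and 494 to 524 CPM with Aβ42), again without overlap. Each member's log2 fold change was lower on the log2(TPM + 1) scale than in edgeR's test. Other genes showed this too, such as VDAC2 (0.095 against 0.15) and JUN (0.26 against 0.30), while BOK was at -0.32 on both. Why was not tested. The 6 pro-apoptotic members summed to 132, 147 and 139 TPM in vehicle and 113, 152 and 130.2 TPM with Aβ42, where replicate 1 was the lowest and replicate 2 the highest of all 6 libraries. Their means were 132 ± 19.5 TPM with Aβ42 and 139 ± 7.79 TPM with vehicle (SD, n = 3 each), a difference of -5.56%. As CPM it was -3.27%, and the groups overlapped in both units.

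The ratio of the anti-apoptotic to the pro-apoptotic sum was 2.95, 2.72 and 2.81 with vehicle, against 3.12, 2.46 and 2.703 with Aβ42. The groups overlapped, and the Aβ42 libraries held both the highest and the lowest ratio. On the log2 scale the ratio was 1.50 ± 0.06 in vehicle and 1.46 ± 0.17 with Aβ42 (SD, n = 3 each), so its difference of -0.04 was smaller than the spread between replicates of either group. It was 0.04 without Aβ42 replicate 2, -0.13 without Aβ42 replicate 1 and -0.01 without vehicle replicate 1. Within the anti-apoptotic sum, the share of MCL1 was 54.2% to 56.9% in vehicle and 57.1% to 59.3% with Aβ42, and the share of BCL2 6.60% to 6.98% and 5.55% to 6.51%. BAD held the largest share of the pro-apoptotic sum of members in all 6 libraries, at 37.9% to 45.4%. BAX, a pro-apoptotic gene that is not a member here, is outside this sum. Its level was 81.6 to 103 TPM, against 42.8 to 68.8 TPM for BAD, so the ratio holds for the listed members only.

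**Figure D5:**
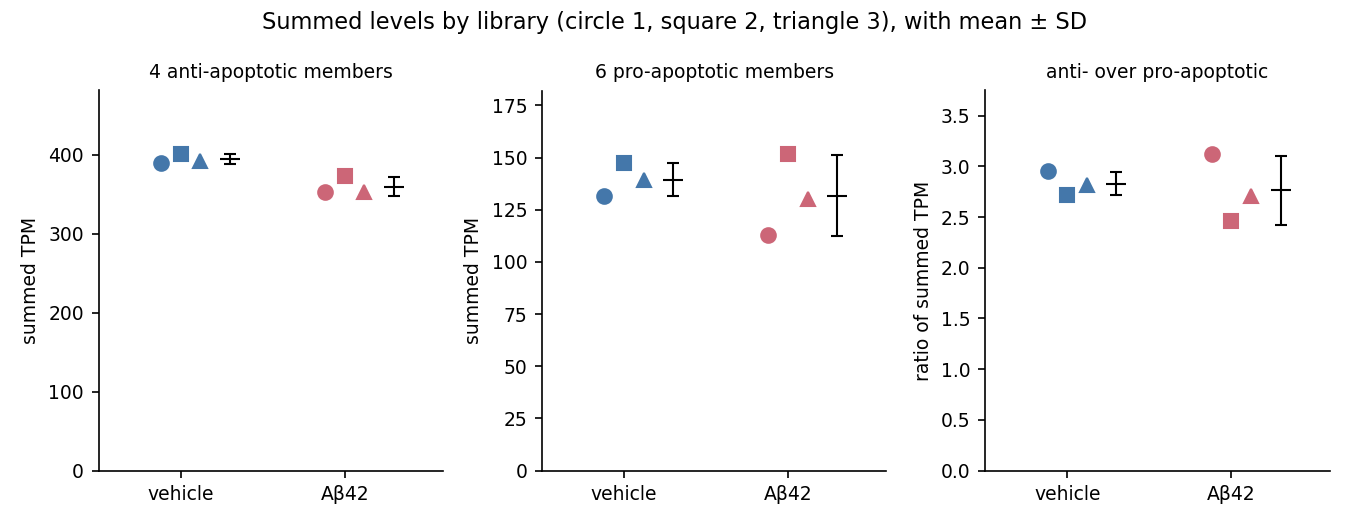
Summed TPM of the 4 anti-apoptotic members (left), of the 6 pro-apoptotic members (centre) and the ratio of the 2 sums (right), by library, with mean and SD (n = 3). Axes start at 0. The anti-apoptotic sums do not overlap between groups, and the pro-apoptotic sums and the ratio do.

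In bulk RNA, fewer cells of a type and less RNA per cell cannot be told apart, and the summed levels of 2 marker lists, like the anti-apoptotic sum, did not overlap between groups. All 9 dorsal forebrain markers were at 1 TPM or more in every library, as the labelled tissue implies. The summed level of 10 neuronal markers was 4943 to 5300.2 TPM in vehicle and 4693 to 4785 TPM with Aβ42, without overlap, with 5 of 10 lower and 5 higher by log2 fold change. The 9 proliferation markers, of which 9 were lower in value, summed to 438 to 523 TPM in vehicle and 282 to 398 TPM with Aβ42, also without overlap. Other lists overlapped. Radial glia and progenitor markers summed to 7359 to 7648 TPM in vehicle and 7568 to 7979 TPM with Aβ42, with 6 of 9 higher in value. With the replicate block, however, 3 of these 9 were called lower (NES, HOPX and EOMES) and 0 higher, against 7.05% and 7.12% of all genes. Astrocyte markers summed to 796 to 898 TPM in vehicle and 656 to 809 TPM with Aβ42, with 6 of 7 lower. Mesenchymal and endothelial markers summed to 20.8 to 39.1 TPM in vehicle and 16.3 to 21.8 TPM with Aβ42. Of 6 choroid plexus markers, 4 were at 1 TPM or more in every library. Their sum was 7548 TPM in vehicle replicate 2 and 6647 TPM in Aβ42 replicate 2, against 2834 to 3958 TPM in the other 4 libraries. Replicate 2 was also the highest library of its group for 7 of 10 members in vehicle (34.3% of all genes) and for 7 of 10 with Aβ42 (38.8% of all genes). Marker sums are in TPM, on which the members' differences ran lower than in edgeR's test. The part of these cell types in the member values was not tested. Of the 9 microglial markers, C1QA, C1QB, C1QC, TREM2 and TYROBP were at 0 throughout, and a count of 0 allows 3 counts, or 0.182 CPM. CX3CR1, P2RY12, AIF1 and CSF1R were not at 0 throughout but stayed below 1 TPM in every library.

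Other genes of the pathway were taken from 5 lists of 64 genes, of which 56 could be tested. BAX, BBC3, PMAIP1 and BOK were named whatever their result. Unless said otherwise, the other genes named here and below had the smallest p-value in a direction of their list. They were thus picked by their p-values in these data. In edgeR's test without a block 0 passed, and before adjustment 6 lower and 9 higher had p-values under 0.05, against 11.5% and 12.4% of all genes. With the replicate block 5 passed as lower and 4 as higher, against 7.05% and 7.12% of all genes, which is near the background. Among the other BCL2 family genes (7 of 11 tested, 4 lower and 3 higher in value), BBC3, the p53-inducible BH3-only gene of PUMA, had 11.8, 8.57 and 11.2 CPM with vehicle, against 14.5, 10.6 and 19.3 CPM with Aβ42. Aβ42 replicates 1 and 3 lay above all vehicle libraries and Aβ42 replicate 2 among them. Its log2 fold change was 0.49 ± 0.21 (SE) (adjusted p-value 0.209 in edgeR's test), and its adjusted p-value with the block was 0.0118. BBC3 passed in 3 of 16 alternatives. Its log2 fold change ran from 0.26, without Aβ42 replicate 3, to 0.68, without Aβ42 replicate 2. PMAIP1 (NOXA), a further BH3-only target of p53, was at a log2 fold change of -0.02 ± 0.15 and BAX, the partner of BAK1, at -0.10 ± 0.08 (adjusted p-values 0.953 and 0.473 in edgeR's test). BOK, a BAX-like gene, had 18.1, 15.2 and 14.3 CPM with vehicle, against 12.2, 14.3 and 11.8 CPM with Aβ42, so all Aβ42 values lay below all vehicle values, narrowly between Aβ42 replicate 2 and vehicle replicate 3. Its log2 fold change was -0.32 ± 0.12 (SE) (adjusted p-value 0.145 in edgeR's test). BOK passed in 3 of 16 alternatives, and its log2 fold change ran from -0.44, with replicates 1 and 3 alone, to -0.21, without vehicle replicate 1. BCL2L13, a mitochondrial family protein, had the smallest p-value among those higher, at a log2 fold change of 0.14 ± 0.05 (SE) (adjusted p-value 0.155), and at 0.055 on the log2(TPM + 1) scale (limma, adjusted p-value 0.528).

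Downstream of the family, the 18 tested genes of cytochrome c release, the apoptosome and caspases had a median log2 fold change of 0.03, with 7 lower and 11 higher in value. CASP2, an initiator caspase, went from 57.0 ± 2.54 to 49.2 ± 2.65 CPM (log2 fold change -0.21 ± 0.06 (SE), adjusted p-value 0.0979 in edgeR's test and 0.0306 with the block). VDAC2, an outer membrane channel that binds BAK1, went from 167 ± 3.87 to 186 ± 9.83 CPM (log2 fold change 0.15 ± 0.05 (SE), adjusted p-value 0.121), with no overlap between groups in CPM. From log2(TPM + 1) VDAC2 differed by 0.095. Of 6 tested inhibitors of apoptosis 5 were lower in value, NAIP at a log2 fold change of -0.19 ± 0.06 (SE) with the smallest p-value (adjusted 0.0916 in edgeR's test, 0.0352 with the block), and BIRC2 (cIAP1) was the 1 higher, at 0.05 ± 0.05 (SE) (adjusted p-value 0.522). NAIP has near-identical copies and its counts were not whole, so its level is uncertain. Of the 7 tested death receptors and adaptors, TNFRSF10B, a receptor for TRAIL, was at a log2 fold change of 0.16 ± 0.05 (SE) (adjusted p-value 0.106) and TNFRSF1A, a TNF receptor, at -0.39 ± 0.18 (SE) (adjusted p-value 0.224, or 0.0438 with the block). TNFRSF1A was at 8.84 CPM in Aβ42 replicate 1, against 15.3 and 13.98 CPM in the other Aβ42 libraries. Without that library its log2 fold change was -0.18 (edgeR, adjusted p-value 0.434), and without Aβ42 replicate 2 it was -0.54 (0.0497).

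Regulators that act on the members' transcription or turnover were split, with 9 of 18 lower and 9 higher in value. JUN, a transcription factor of the JNK pathway that can induce BCL2L11 and HRK in neurons, had 233, 199.9 and 234 CPM with vehicle, against 279, 262 and 282 CPM with Aβ42. The groups did not overlap, and JUN differed by 0.30 ± 0.06 (SE) on the log2 scale (edgeR, adjusted p-value 0.0691, or 0.00108 with the block). MAPK10, the neuronal JNK, was at a log2 fold change of -0.21 ± 0.06 (SE) (adjusted p-value 0.0841, or 0.0245 with the block). A pair of further regulators were called with the block and are named after their values were seen: DDIT3 (CHOP) and ATF4, whose counts were not whole. Their blocked log2 fold changes were 0.56 and 0.21, with blocked adjusted p-values of 0.000447 and 0.0178 in edgeR's test. Without the block they were at 0.57 ± 0.13 and 0.21 ± 0.06 (SE), and neither passed (adjusted p-values 0.0734 and 0.0952 in edgeR's test). With the block BIRC5 (survivin), an inhibitor of apoptosis made in dividing cells, had a log2 fold change of -0.61 (blocked adjusted p-value 0.000831 in edgeR's test). It is also named after its value was seen. Without the block BIRC5 was at -0.59 ± 0.25 (SE) (adjusted p-value 0.221 in edgeR's test), and its groups overlapped in CPM. The part of the lower proliferation markers in the BIRC5 values was not tested.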

How the data were processed

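RNA sequencing of 6 libraries was analysed, 3 of vehicle and 3 of Aβ42. Per the submitters' processing notes, FastQC, STAR 2.7.11b, featureCounts 2.0.6 and GRCh38 are named, with no roles. The authors deposited 1 table that holds, for each gene, estimated counts and TPM in every library. The headers call the former read counts, but only 86.9% to 87.5% of them are whole in a library, so they were treated as estimated counts and rounded. The deposited TPM values were used as they are, to compare levels between genes. How TPM was computed, the annotation and strand settings are not given in the sources used here.

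Groups were compared over all genes kept by filterByExpr (edgeR 4.0.16, R 4.3.3), with TMM scaling, robust quasi-likelihood tests without a block and Benjamini-Hochberg adjustment. An SE is the absolute log2 fold change over the square root of F. Alternatives used limma 3.58.1 and DESeq2 1.42.0, other scalings and filters, TPM with a pseudocount of 1 or 0.1, a replicate block and leaving out libraries; 1 further fit and 1 further sum were added after seeing the data. The script was tested on simulated data. The 10 members and all gene lists were chosen with earlier results of these data known. Named pathway genes were BAX, BBC3, PMAIP1 and BOK, and the smallest p-value in each direction of each list.

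Deviations from group means, correlated over 12186 genes, were 0.182, 0.396 and 0.129 between same-numbered libraries. All exceed 0.1, the threshold set for pairing, but the labels do not give the pairing. The main fit therefore had no block, and the numbers were treated as pairs only in the block alternative and in the values given by pair. These correlations do not establish the pairing of numbers 1 and 3: vehicle replicate 3 with Aβ42 replicate 1 gave 0.179 and vehicle replicate 1 with Aβ42 replicate 3 gave 0.164. Only replicate 2 stood apart, at -0.304 to -0.221 with the other numbers. Library pairs differed by more than sampling (chi-square of 3.16 to 21.1 per gene), so all were kept as replicates. The lowest value lay across groups, between vehicle replicate 1 and Aβ42 replicate 2. Aβ42 replicate 2 was at 3.16, 7.70 and 4.58 with vehicle replicates 1, 2 and 3, and at 9.40 and 8.48 with Aβ42 replicates 1 and 3. In limma-voom its quality weight was 0.395, the lowest of all libraries. This library thus lay nearer to vehicle than to its own group, and why was not tested.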

Additional observations from a re-analysis of the deposited data

How the results depend on the processing

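No gene passed in edgeR's test with all 6 libraries and no block (3302 at an unadjusted p-value under 0.05). Over all genes the count passing was 360 without a filter on low counts, 809 by DESeq2, 2543 with quality weights, 1962 with the replicate block and 2316 with replicates 1 and 3 alone, a fit chosen after seeing the data. It ran from 0 to 3224 over the 6 fits that each left out 1 library (1871 to 5170 unadjusted), with calls only without Aβ42 replicate 2. The unadjusted count was 1920 when vehicle replicate 2 was left out, 2103 for Aβ42 replicate 1, 1871 for Aβ42 replicate 3 and 5170 for Aβ42 replicate 2. Among the members the count passing was 0, and 1 (BCL2) by DESeq2, with quality weights, with the replicate block and with replicates 1 and 3 alone. Leaving out 1 library gave 0 to 1 members passing, BCL2 without Aβ42 replicate 2, and 1 to 4 at an unadjusted p-value under 0.05. The replicate block changed no other member's call. Of 160 member values under alternatives 4 turned in sign, all with 1 library left out: BAD 0.11 and BAK1 0.054 without Aβ42 replicate 1, and BMF -0.036 and -0.060 without vehicle replicate 1 and Aβ42 replicate 3. PMAIP1 turned to 0.082 and 0.047 without vehicle replicate 1 and Aβ42 replicate 1. With 1 library left out, the range was -0.22 to 0.11 for BAD, -0.060 to 0.12 for BMF, -0.21 to 0.054 for BAK1 and -0.12 to 0.082 for PMAIP1. Likewise BAX reached -0.057 without Aβ42 replicate 3 and BIRC2 0.027 without vehicle replicate 2. The difference in log2 ratio of anti- to pro-apoptotic members moved by less than the SD pooled over both groups (0.130), but its size did not always stay under the SD. With 1 library left out it ran from -0.133, beyond that pooled SD, to 0.039, of the other sign. It was -0.082 with members weighted equally on the log2(TPM + 1) scale and -0.071 with BAX, BOK, BBC3 and PMAIP1 added. Without MCL1, a sum chosen after seeing the data, it was -0.115. Each is beyond 0.06, but that is the vehicle SD of the main ratio, and the SDs of these other measures are not given here. Beyond the fewer samples of the fits that leave out a library, the cause of these differences was not tested. Counting error was larger for members with fewer counts, at 8.86% for BAK1 and 6.80% for BMF, against 1.37% for MCL1. It covers counting only. The coefficient of variation was 10.1% in vehicle and 18.4% with Aβ42 for BAK1, and 11.3% and 10.8% for BMF.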

Other observations

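The estimated count divided by TPM gives the transcript length that the authors' estimate implies, up to a factor per library, and it can shift between libraries when the mix of transcripts of a gene shifts. After division by the library median, this implied length varied least, over the 6 libraries, for HRK and BCL2L2, by 0.507% of its mean for both, and by 0.708% for BAK1. Among the members it varied most for BCL2L11, a gene with several known splice forms, by 4.02%, and for BAD, by 3.59%. The median over 11045 genes with at least 5 TPM in every library was 1.66%, and 10% of genes were above 9.29%. BCL2L11 was shortest in vehicle replicate 3 (0.975 of its mean) and longest in Aβ42 replicate 3 (1.015), while vehicle replicate 1 (1.006) lay beside Aβ42 replicates 1 and 2 (1.005 and 1.006). The table gives no isoform values, so splice forms such as those of BCL2L1 or MCL1 with opposite effects on survival were not analysed here.

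Replicate 2 was the highest library of its group in both vehicle and Aβ42 for 5 of 10 members (BCL2, BCL2L11, BAD, HRK and BAK1), against 18.5% of all genes tested. Among genes lower in value with Aβ42, Aβ42 replicate 2 was the highest of its group for 61.2%.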
